A study of Drosophila melanogaster with 3 samples.

Results

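The results below describe binding sites of Nautilus (nau) that were selected for lying inside a gene with a further binding site close by. These sites were taken from a genome-wide map of Nau-GFP binding in whole Drosophila melanogaster embryos. A site entered when its summit, the base of highest signal within a bound region, lay more than 2000 bp from every protein-coding transcription start site (TSS), inside a protein-coding gene, and within 3000 bp of another summit of the same list. The rule took 483 of 3767 summits (12.8%, 95% Wilson interval 11.8 to 13.9%), called clustered summits here. Because it used their positions and the list itself used their signal, spacing, signal and rank are given below as a description with no test. The other summits were 570 inside genes at the same distance from a TSS but with no neighbour within 3000 bp, called isolated summits, 455 distal intergenic summits and 2259 summits within 2000 bp of a TSS. Among the 1053 distal summits inside genes, 483 (45.9%) were clustered. Of all 3767 summits, 1808 (48%) had another within 3000 bp, and of those near a TSS 1131 of 2259 (50.1%) did.

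Chromatin was immunoprecipitated with an antibody against GFP from embryos of the transgenic strain nau-GFP, which stably carries nau fused to GFP at its C terminus, and was sequenced in 3 biological replicates. The antibody field of the labels names nau, whereas the description names GFP. The embryos were of both sexes, were collected between 4 and 24 h, and were processed as whole organisms, so that a summit can come from any tissue and any stage of that period. No group without the tagged protein was analysed here, and 3 replicate lists of 30000 regions each, a list from the pooled replicates and the list that passed the irreproducible discovery rate (IDR) filter are the material of all results below. The number of reads behind each replicate is unknown here.

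Nau is the fly member of the MyoD family of basic helix-loop-helix transcription factors, which specify and maintain subsets of embryonic muscles. Such factors pair with a ubiquitous partner and bind the E-box, a short palindrome-like word CANNTG whose central bases differ between factors, and MyoD relatives are best known for binding the forms CAGCTG and CACCTG. Developmental genes often carry several enhancers in their introns, and transcription factors frequently occupy neighbouring sites within 1 gene.

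The DNA under a few clustered summits is shown first, because the question of which sequence marks these sites runs through the results. All sequences are from the RefSeq copy of Release 6 of the fly genome (dm6), plus strand, with 50 bp either side of the summit and the E-box CAGCTG in capitals.
The first pair come from Tlk, which encodes the Tousled-like kinase, where the strongest summit (chrX:3742171-3742271) had no CAGCTG and the next one, 808 bp away (chrX:3742979-3743079), had 1.
Tlk strongest: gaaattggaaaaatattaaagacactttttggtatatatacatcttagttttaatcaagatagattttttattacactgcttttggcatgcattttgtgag
Tlk neighbour: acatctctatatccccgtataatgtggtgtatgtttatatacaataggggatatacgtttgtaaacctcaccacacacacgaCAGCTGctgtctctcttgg
Among the strongest clustered summits with CAGCTG within 50 bp were those in tmod (chr3R:30541635-30541735), which encodes tropomodulin, a cap of actin filaments in the sarcomere, in Ptx1 (chr3R:30921729-30921829), which encodes a Pitx homeodomain factor, and in AdamTS-A (chr3R:15465549-15465649), which encodes a secreted metalloprotease. The tmod window held 2 abutting copies, and in AdamTS-A the centre of the word lay 0.5 bp from the summit.
tmod: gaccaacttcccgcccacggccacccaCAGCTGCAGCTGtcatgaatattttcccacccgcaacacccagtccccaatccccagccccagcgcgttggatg
Ptx1: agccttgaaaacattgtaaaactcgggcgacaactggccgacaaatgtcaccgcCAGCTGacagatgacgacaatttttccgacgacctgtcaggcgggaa
AdamTS-A: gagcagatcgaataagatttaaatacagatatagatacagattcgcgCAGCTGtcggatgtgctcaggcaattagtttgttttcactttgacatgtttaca
The last pair are neighbours 1303 bp apart in crp (chr2L:16271571-16271671 and chr2L:16272874-16272974), the gene of cropped, a basic helix-loop-helix protein related to vertebrate AP4. The gene was chosen for display after its values were seen, since 4 of its 6 clustered summits had CAGCTG within 100 bp.
crp first: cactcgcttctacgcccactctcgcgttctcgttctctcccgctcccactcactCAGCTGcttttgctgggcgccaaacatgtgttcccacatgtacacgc
crp second: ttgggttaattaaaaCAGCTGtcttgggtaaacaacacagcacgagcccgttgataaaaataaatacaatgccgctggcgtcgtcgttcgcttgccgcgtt

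Most clustered summits had a clustered neighbour in the same gene. The next summit was another clustered one for 376 of 483 (77.8%), one near a TSS for 105 (21.7%) and an intergenic one for 2, and it lay in the same host gene for 469 (97.1%). The distance to it had a median of 1355 bp and ran between 199 and 2994 bp. The distances were of 2 kinds. For 60 summits (12.4%) the next one was less than 210 bp away, few lay between 300 and 500 bp, and the others spread over the whole range up to 3000 bp. For 75 summits (15.5%) the bound region overlapped that of the next summit, and 4 shared 1 interval with another entry. No summit had a neighbour closer than 199 bp, which was also the lowest distance in the list of each replicate. Chromatin fragments were 200 to 800 bp long by the sample descriptions, so the closest pairs lay about as far apart as the shortest fragments are long. Whether the closest pairs are separate sites or 1 site that received a pair of summits was not tested.

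**Figure D1:**
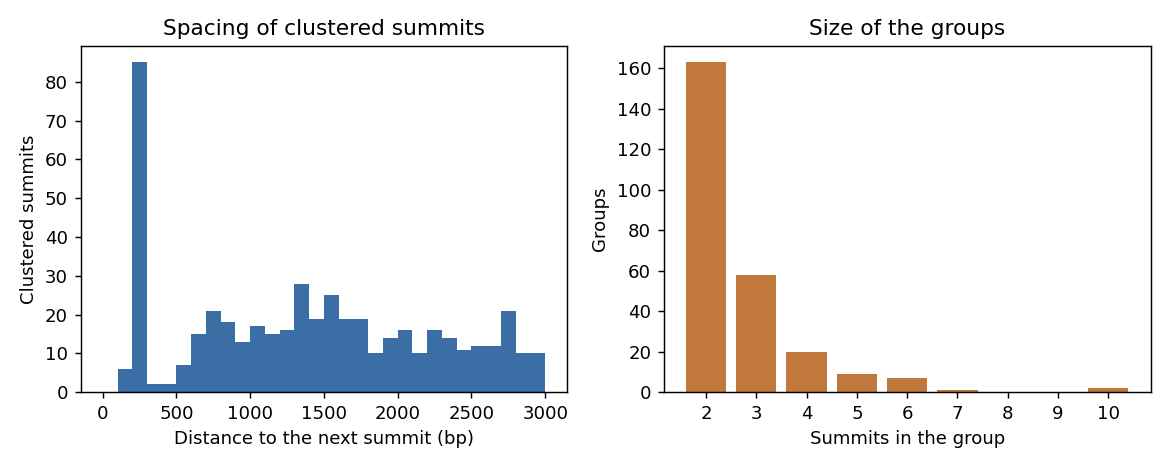
Left, the number of the 483 clustered summits by distance to the next summit (bp, bins of 100 bp). Right, the number of the 260 groups of neighbouring summits by how many summits they hold. The left panel has a narrow peak just above 199 bp and a broad spread up to 2994 bp, and in the right panel 163 groups hold 2 summits.

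Joining summits that lay within 3000 bp of each other gave 260 groups with at least 1 clustered summit and 694 summits in all, of which 207 lay near a TSS and 4 were intergenic. Pairs made up 163 groups, 58 groups held 3 summits, 20 held 4 and 19 held 5 or more. The median span between first and last summit was 2246 bp. In 132 groups every summit was a clustered one, whereas 126 groups also reached a summit near a TSS. The strongest summit of a group usually stood not far above the second. The median ratio of their signal values was 1.40, and in 46 groups (17.7%) it was over 2. The strongest summit was itself a distal one inside a gene in 189 groups.

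The largest groups sat in Raf, which encodes the kinase between Ras and MEK, and in CHES-1-like, which encodes a forkhead factor, with 10 summits each over 12849 and 12237 bp. In Raf, 6 of the 10 were clustered distal summits, all in the second intron, and all 6 were matched in all 3 replicates. A summit counts as matched in a replicate when one of that replicate's own strongest 3767 summits lies within 100 bp. The strongest of the Raf summits, 2252 bp from a TSS, had signal values of 289, 330 and 414 in replicates 1, 2 and 3. The weakest of the 6 in the pooled list had 106, 101 and 118. It was the weakest in no single replicate, where the lowest values of the 6 were 100.7, 77.4 and 109.5. In CHES-1-like only 2 of the 10 were clustered distal summits, and the other 8 lay near a TSS. The next groups were those of msn, which encodes a Ste20-family kinase, with 7 summits over 8563 bp, and 7 groups with 6 summits, of which those of ush, sbb, Amph, shn and CG10365 had the highest signal. Amph encodes amphiphysin, a membrane-bending protein of the muscle T-tubules. Its group reached over the start of the neighbouring gene Sin3A, and 2 of its 6 summits were clustered distal ones.

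**Figure D2:**
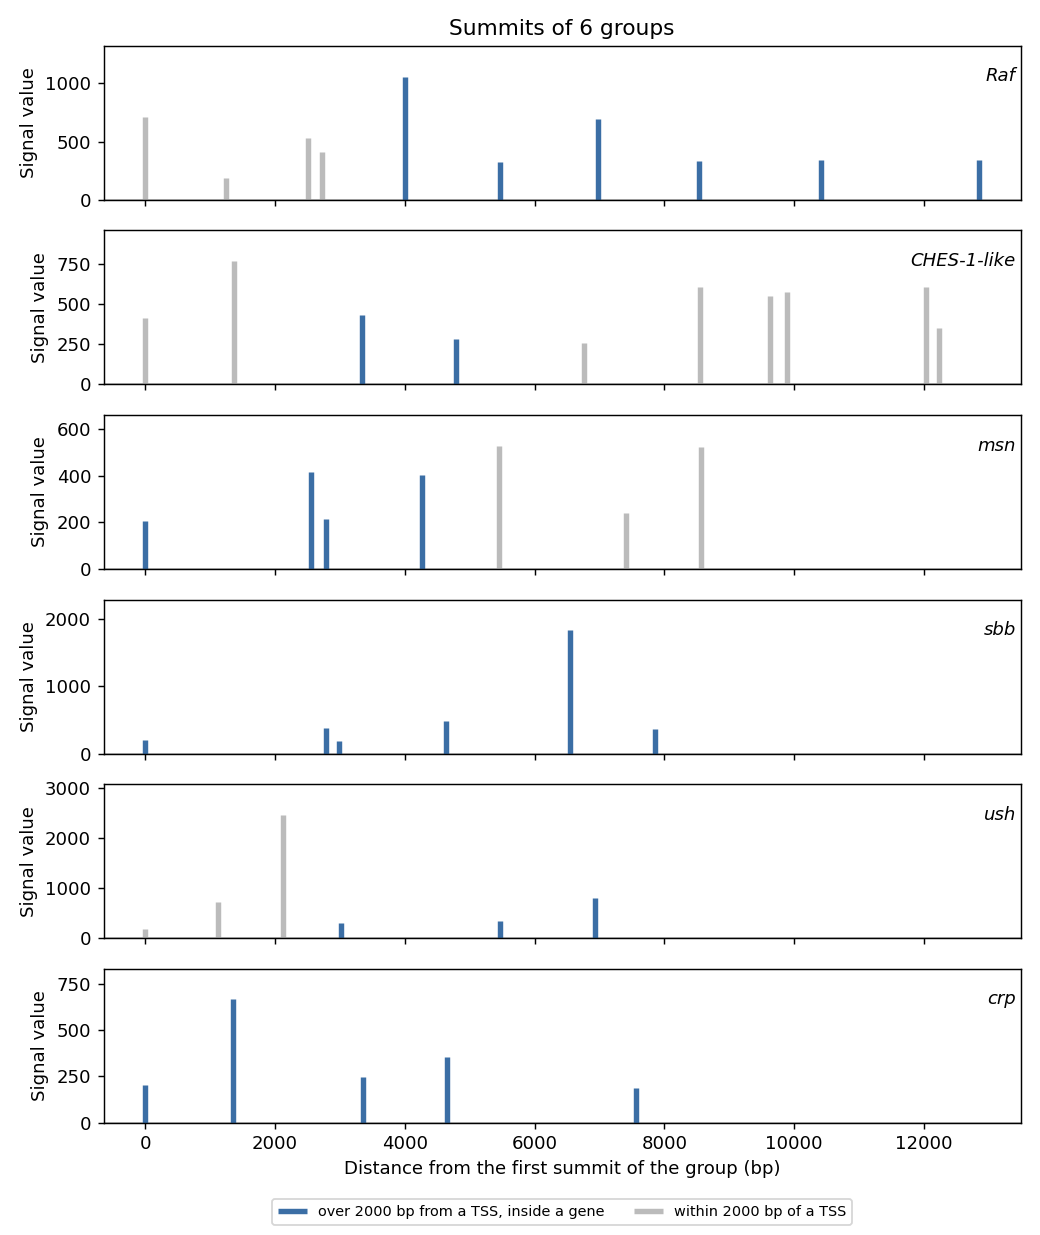
Position of each summit (bp from the first summit of its group, along the chromosome) and its signal value in the pooled IDR list, a linear scale of the authors' without a stated unit, for 6 groups. Blue bars are clustered distal summits inside the gene and grey bars are summits within 2000 bp of a TSS. Raf has 6 blue bars over 12849 bp with the highest at 1054, sbb has only blue bars with 1 at 1826, and in ush the highest bar, at 2470, is a grey one. The crp group was chosen after its values were seen.

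In sbb, which encodes the zinc-finger protein scribbler, 1 summit stood far above its 5 neighbours. It had a signal value of 1826 in the pooled list, against 187 to 487 for the others of the group, and 597, 518 and 681 in replicates 1, 2 and 3. In ush, which encodes the GATA cofactor U-shaped, the strongest summit of the group lay near a TSS, with 2470 in the pooled list. The 3 clustered ones had 297, 339 and 800, all 3 matched in every replicate. In the group of shn, which encodes the zinc-finger factor Schnurri of the Dpp pathway, summit positions differed between replicates. Its strongest clustered summit, ranked 584 with a neighbour 212 bp away, had a signal value of 137 in replicate 2 and no listed region within 100 bp in replicates 1 and 3. The neighbour was listed in all 3, with 145, 116 and 194. In simj, which encodes the p66 subunit of the NuRD chromatin remodeller, a pair 206 bp apart behaved alike. The stronger summit had 250 and 263 in replicates 1 and 2 and was not listed within 100 bp in replicate 3, where the other summit of the pair had 290, against 68.9 and 46.7 in replicates 1 and 2.

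Clustered summits were almost all intronic. An intron held 473 of 483 (97.9%), an untranslated exon 9 and a coding exon 1, in CG10283, and isolated summits were alike with 555 of 570 (97.4%). The intron was the first one of at least 1 transcript for 310 (64.2%, interval 59.8 to 68.4%) of the clustered and 326 (57.2%, 53.1 to 61.2%) of the isolated summits. The median distance to a TSS was 4673 bp, against 6273.5 bp for isolated summits. Genes overlapped at 15 clustered summits, and a noncoding TSS lay within 2000 bp of 34. The arms 2L, 2R, 3L, 3R and X held 72, 100, 112, 118 and 81 clustered summits, and chromosome 4 held 0.

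Among the strongest 3767 summits of each replicate, 238 of 483 clustered summits (49.3%, 44.8 to 53.7%) were matched in all 3, close to the 51.5% of all IDR summits and the 51.6% of isolated ones. In single replicates 75.2, 74.5 and 77.8% were matched, a mean of 75.8 ± 1.76% (SD, n = 3), against 75.5 ± 4.23% of isolated summits. Only 10 were matched in none. Over the whole replicate lists of 30000 regions, 424 (87.8%) of the clustered summits had a listed summit in all 3 replicates, against 529 (92.8%) of the isolated ones. The share matched in all 3 followed the signal rank in the pooled list. It was 38 of 41 (92.7%) for ranks up to 500, 70 of 72 (97.2%) for 501 to 1000, 107 of 141 (75.9%) for 1001 to 2000, 23 of 133 (17.3%) for 2001 to 3000, and 0 of 96 below that, for which the Wilson interval reaches 3.85%. In the same order of ranks, 100, 98.2, 83.4, 25.6 and 2.46% of isolated summits were matched in all 3. Of all IDR summits the shares were 96.8, 93.4, 75.7 and 22.4%, and 8 of 767 (1.04%) below rank 3000. Clustered summits thus had a lower share than isolated ones in every range of rank, a difference that was not tested. The match is limited to the strongest 3767 of each replicate, so a summit of low rank can miss it although a replicate lists it further down. The pooled list contains the reads of the replicates, so these shares are not independent evidence. Within groups, 138 of the 189 clustered summits that were the strongest of their group (73.0%) were matched in all 3 replicates, against 100 of the other 294 (34.0%), and their median signal values were 332 and 212. All summits were matched in all 3 replicates in 47 groups (18.1%), and none in 54 (20.8%).

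The 12 clustered summits of highest signal were each matched in every replicate. They lay in sbb, Lrch, Tlk, simj, Gug, Raf, trx, S, gukh, px, Kdm2 and ush. Gug encodes the corepressor Atrophin, trx a histone methyltransferase and Kdm2 a histone demethylase. The summit in Gug had signal values of 330, 351 and 376 in replicates 1, 2 and 3, and the one in trx had 307, 323 and 391. Both were highest in replicate 3, in which clustered summits as a whole had higher signal values (medians of 80.0, 81.0 and 96.3 in replicates 1, 2 and 3). S encodes Star, a transport protein for epidermal growth factor ligands, and gukh a partner of the scaffold protein Discs large at the neuromuscular junction. The summit in gukh had 233, 343 and 368, which put it at rank 236 in replicate 1 but 58 and 102 in replicates 2 and 3, the widest spread of rank among the 12. The summit in sbb ranked 12, 13 and 9.

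**Figure D3:**
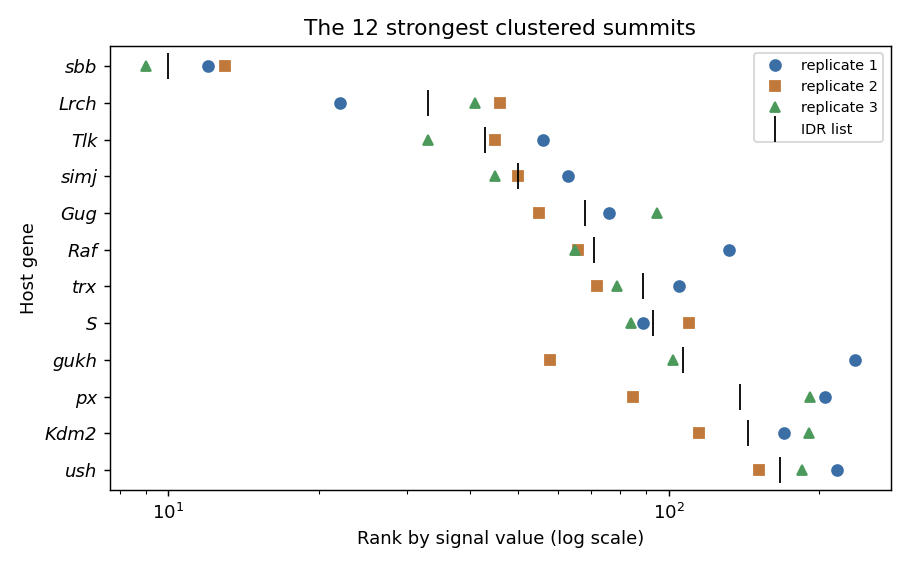
Rank by signal value (log scale, 1 is the strongest) of the 12 clustered summits of highest signal, named by host gene. Symbols are the ranks in the lists of replicates 1, 2 and 3, and the vertical bar is the rank in the IDR list. The sbb summit sits between ranks 9 and 13 in every list, and the gukh summit spreads between 58 and 236.

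The clustered summits fell into 230 host genes, 1.65% of the 13945 protein-coding genes. Hosts were long, with a median of 29078.5 bp against 32788 bp for the hosts of isolated summits and 2166 bp for all genes. Of the 1013 genes of 20 kb or more, 150 (14.8%) were hosts, and the share was 28 of 11968 (0.234%) for genes under 10 kb, 52 of 964 (5.39%) from 10 to 20 kb, 89 of 706 (12.6%) from 20 to 50 kb and 44 of 224 (19.6%) from 50 to 100 kb. A gene needs room for a site more than 2000 bp from a TSS, so the rule itself ties hosts to length. Of the 230 hosts, 84 held 1 clustered summit, 89 held 2 and 57 held 3 or more, and 155 (67.4%) also held a summit near a TSS. When the rule was applied to each replicate's own strongest 3767 summits, it found 451, 465 and 452 clustered summits in 220, 220 and 208 genes. Of the 230 hosts, 111 (48.3%) were hosts in all 3 replicates and 10 in none.

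The hosts with 6 or more clustered summits were sbb, px, cv-c, Raf, ush, crp, tara, shn and RapGAP1, and of the 8 hosts with 5, simj, Mef2 and InR had the highest signal. In sbb the pooled list had 10, and the replicates' own lists had 12, 10 and 9. The gene px, for the nuclear protein Plexus of wing vein patterning, held 7, and 7, 5 and 8 in the replicates. The transcriptional coregulator gene tara held 6, and 5, 10 and 5. Its strongest summit had signal values of 50.3 in replicate 1 but 225 and 222 in replicates 2 and 3. InR, for the insulin receptor, held 5, and 2, 2 and 7 in the replicates, with the pooled count reached in replicate 3 alone. RapGAP1, for an activator of the Rap1 GTPase, held 6, and 3, 5 and 5. Of the 17 hosts with 5 or more, 16 were hosts in all 3 replicates. The exception was Fur1, for a furin protease, with 5 in the pooled list and 0, 4 and 6 in the replicates. In crp the 6 lay in a gene of 24175 bp, or 2.48 per 10 kb.

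Genes of muscle development were among the hosts. Of 32 mesoderm and muscle factors, 3 (9.38%) held clustered summits (Mef2, Ptx1 and zfh1), beside 1.65% of all protein-coding genes. These shares are not matched for length, since the list genes had a median of 10345 bp, above that of all genes. Of the 9 list genes of 20 kb or more, 2 were hosts, beside 14.8% of all genes of that length. Mef2, the muscle differentiation factor, held 5, all in a first intron of at least 1 transcript, all matched in all 3 replicates and with 5 in each replicate's own list. The strongest had signal values of 220, 202 and 248. Ptx1 held 2, and its stronger one, shown above, had 110, 120 and 172, whereas the weaker one was matched in replicate 3 alone with 76.6. In zfh1, a zinc-finger homeodomain factor of the mesoderm, 1 summit had 87.8, 115 and 143. The nau gene itself held 0 clustered summits and 1 isolated one.

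Of 17 myoblast fusion genes, 3 (17.6%) were hosts (kirre, mbc and rols), beside 1.65% of all protein-coding genes. Among the 6 of 20 kb or more, 2 were hosts, beside 14.8% of all genes of that length. The founder-cell adhesion receptor gene kirre, the longest host at 394149 bp, held 4, of which the one nearest a TSS, also inside the overlapping gene CG32795, had 108, 98.5 and 112, and none of the other 3 was matched in all 3 replicates. In mbc, for a Rac exchange factor, 1 summit had 85.6, 94.5 and 101. In rols, for an adaptor protein of founder cells, 1 summit had 102, 39.7 and 76.0 and was matched in replicates 1 and 3. Of 28 sarcomere genes tmod was the host, with 3 clustered summits. The strongest, with the abutting pair of CAGCTG, had 183, 258 and 278, and its neighbour 200 bp away had 59.8, 88.1 and 100. In both the lowest value was that of replicate 1. Of 21 muscle attachment genes 2 were hosts, mew for an alpha integrin with 4 and rhea for talin with 1. The strongest in mew had 93.1, 83.7 and 94.8, and the summit in rhea had 49.7, 104 and 92.8.

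Of 18 nerve-muscle adhesion genes, 3 were hosts. The leucine-rich repeat receptor gene caps held 2, of which the stronger had 195, 190 and 246, and both were matched in all 3 replicates. Ten-m, for a teneurin, held 2, both with CAGCTG, and the stronger had 78.1, 97.4 and 93.9. The 2 in side, for the immunoglobulin protein Sidestep, were weak, at ranks 1957 and 3540. Neither was matched in all 3 replicates, and no replicate's own list made side a host.

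Signalling genes were hosts at like counts. Of 13 Notch pathway genes the host was mam, for the coactivator Mastermind, with 4, the strongest at 271, 206 and 299. Of 20 genes of receptor tyrosine kinase signalling 3 were hosts, Raf with 6 and stumps, for an adaptor of the fibroblast growth factor receptors, and aop, for the ETS repressor Yan, with 1 each. Of 20 genes of BMP and Wnt signalling 3 were hosts, shn with 6, Dad, for an inhibitory Smad, with 2, and nkd, for a Wnt antagonist, with 1. In Dad the stronger summit had 186, 195 and 189, an almost level signal. Of 22 ecdysone and nuclear receptor genes 3 were hosts, Eip75B and ftz-f1 with 4 each and Hr4 with 2. These nuclear receptor genes varied between replicates, with 8, 0 and 4 clustered summits in Eip75B, 7, 2 and 6 in ftz-f1 and 6, 0 and 2 in Hr4 in the replicates' own lists. In all 3 genes the count was highest in replicate 1 and lowest in replicate 2. Of 16 neural genes the host was Syx1A, where the summit also lay in the overlapping gene eIF4EHP, and of 13 genes of trachea, gut and epidermis it was crb, each with 1 weak summit that was not matched in all 3 replicates. Among all genes of 20 kb or more, 14.8% were hosts. Among list genes of that length, hosts were 2 of 9 mesoderm and muscle factors, 2 of 6 for myoblast fusion, 1 of 8 for sarcomere, 2 of 7 for muscle attachment and 3 of 14 for nerve-muscle adhesion. They were 1 of 6 for Notch, 3 of 9 for receptor tyrosine kinase signalling, 2 of 9 for BMP and Wnt, 3 of 14 for nuclear receptors, 0 of 8 for neural genes and 0 of 6 for trachea, gut and epidermis. No list was tested.

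No word searched for passed the test between clustered and isolated summits. CAGCTG lay within 100 bp of 84 of 483 clustered (17.4%, 14.3 to 21.0%) and 87 of 570 isolated summits (15.3%, 12.5 to 18.4%), and of 15.1% of all IDR summits. The odds ratio was 1.17 (95% interval 0.839 to 1.63, adjusted p = 0.743, 2-sided logistic regression over summits, n = 1053, with errors clustered by group and Benjamini-Hochberg adjustment over 20 words). Of the 20 words, 0 (0%) passed at an adjusted p under 0.05, and 1 had an unadjusted p under 0.05. This was TGANTCA, the AP-1 word, in 2.69% of clustered and 5.09% of isolated windows (n = 1053 windows, unadjusted p = 0.0494, adjusted p = 0.743). The lack of a passing word does not show that the classes were equal. For CAGCTG the interval of the odds ratio, 0.839 to 1.63, includes differences of either sign. The DRE word TATCGATA was at 0 of 483 and 0 of 570 and could not be fitted, although 60 of all IDR windows (1.59%) held it. The GC share was 37.8% at clustered and 38.0% at isolated summits, a difference of -0.206 points (n = 1053, SE 0.454, p = 0.650, linear regression with errors clustered by group).

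**Figure D4:**
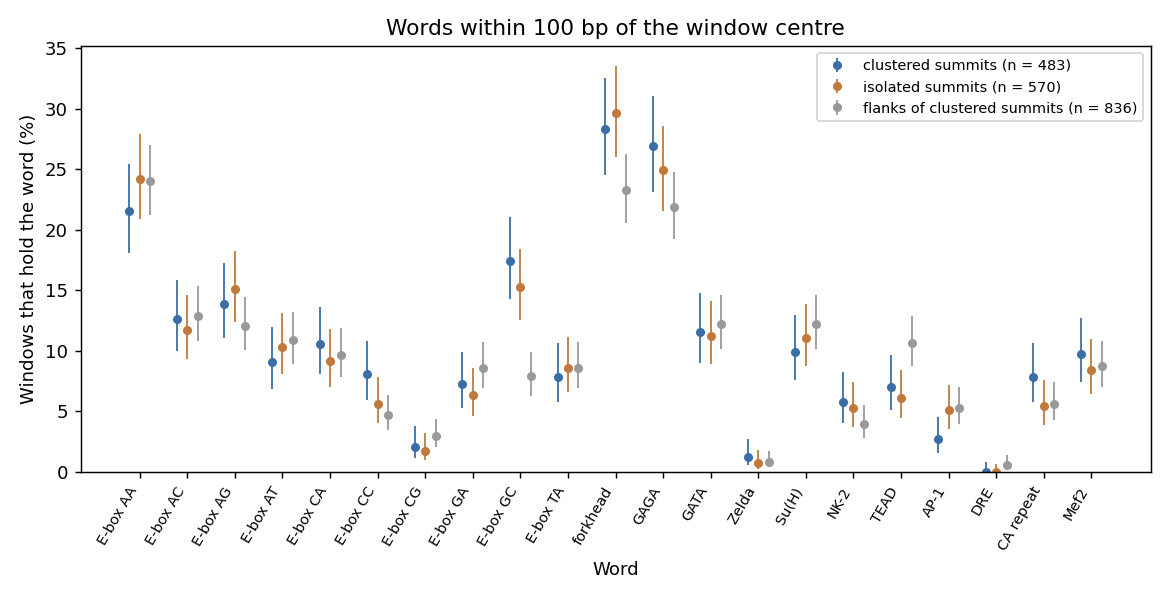
Share of windows (%, 100 bp either side of the centre) that hold each of 21 words, for clustered summits, isolated summits and flanks of clustered summits, with 95% Wilson intervals as bars. E-boxes are named by their 2 central bases. At the E-box with central GC, clustered (17.4%) and isolated summits stand above the flanks (7.89%). The intervals of clustered and isolated summits overlap at every word, this one included.

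CAGCTG was more frequent at clustered summits than in DNA nearby. It lay in 17.4% of the summit windows and in 66 of 836 flanking windows (7.89%, 6.25 to 9.92%) centred 1000 bp away with no summit within 300 bp. Flanks of neighbouring summits can overlap, and the GC share was not a covariate in the comparison with flanks. The odds ratio was 2.46 (1.77 to 3.41, adjusted p = 1.47e-06, same regression, n = 483 and n = 836). At an adjusted p under 0.05, CAGCTG was the 1 of 20 words (5%) that passed as higher at the summits, and 0 (0%) passed as lower. CACCTG, the other E-box of MyoD relatives, lay in 8.07% against 4.67% (odds ratio 1.80, adjusted p = 0.160), the forkhead word TGTTTA in 28.4% against 23.3% (adjusted p = 0.171) and the GAGA word GAGAG in 26.9% against 21.9% (adjusted p = 0.171), by the same regression with n = 483 and n = 836. TGTTTA passed under 3 alternatives, in windows of 50 bp (odds ratio 2.06, adjusted p = 4.68e-05, n = 483), with neighbours within 5000 bp (1.47, adjusted p = 0.00506, n = 645) and with flanks at 2000 bp (1.53, adjusted p = 0.0198, n = 483). GAGAG passed in windows of 250 bp (1.48, adjusted p = 0.00810, n = 483), and CACCTG with flanks outside coding exons (2.12, adjusted p = 0.0397, n = 483). The call for CAGCTG was lost among the clustered summits with a neighbour within 1000 bp (n = 169, odds ratio 1.68, adjusted p = 0.326), among those clustered within the strongest 1883 summits of the list (n = 141, 1.66, adjusted p = 0.349) and among those matched in replicates 1 and 3 (n = 222, 1.83, adjusted p = 0.301). The cause was not tested.

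At isolated summits (n = 570) the same comparison gave an odds ratio of 2.05 for CAGCTG (adjusted p = 0.000222) and of 1.62 for TGTTTA (adjusted p = 0.000250). The ratio of the odds ratios, clustered over isolated, was 1.20 for CAGCTG (0.757 to 1.89, n = 483 and n = 570 summits, adjusted p = 0.802) and 0.802 for TGTTTA (0.567 to 1.14, adjusted p = 0.802), so a difference between the classes was not detected for either word. With the classes rebuilt from each replicate's own list, CAGCTG lay in 13.5, 17.8 and 17.3% of clustered windows and in 7.57, 7.81 and 7.88% of their flanks, higher at the summits in 3 of 3 replicates. The mean was 16.2 ± 2.34% for clustered and 15.3 ± 1.42% for isolated summits (SD, n = 3, exact unpaired permutation p = 0.7, 2-sided). The smallest p that this test allows with 3 against 3 is 0.1. TGTTTA was also higher at the summits in 3 of 3, at 30.2 ± 0.956% in clustered windows and 21.5 ± 1.45% in flanks. GAGAG was too, at 29.5 ± 3.09% and 21.8 ± 1.26%, as was CACCTG, at 6.15 ± 0.676% and 4.58 ± 0.599%. The words CACTTGA and CACACACA were likewise higher in 3 of 3. Lower at the summits in 3 of 3 were CAAATG (21.6 against 24.3%), CAACTG (11.3 against 12.9%) and CAGATG (6.95 against 8.23%). So were TGGGAA (10.4 against 12.9%), GGAATG (7.02 against 9.52%) and TGANTCA (3.51 against 5.66%). Neither direction was tested over replicates.

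CAGCTG and TGTTTA were densest near the summit itself. Within 20 bp of clustered summits CAGCTG occurred 1.87 times per kb (exact Poisson interval 1.32 to 2.58), against 0.424 (0.362 to 0.495) at 401 to 800 bp, and at isolated summits 1.33 and 0.450 times. TGTTTA occurred 2.88 times per kb within 20 bp of clustered summits (2.18 to 3.73), against 1.34 (1.23 to 1.46) at 401 to 800 bp, and at isolated summits 2.61 and 1.26 times. The AdamTS-A and Ptx1 windows above are cases with the word at or next to the summit. GAGAG showed another profile, with 1.72 per kb within 20 bp and 3.56 per kb at 101 to 200 bp from clustered summits. At 201 to 400 bp it occurred 3.25 times per kb (3.00 to 3.51) around clustered and 2.33 times (2.14 to 2.54) around isolated summits, a difference that was not tested. Overlapping copies of a word were each counted, so the Poisson intervals can be too narrow for GAGAG, which overlaps itself in repeats. These bins were compared as a description. They reach 800 bp to either side, so neighbours less than 1600 bp apart share DNA. That held for 289 of 483 clustered summits (59.8%), and their shared bases were counted more than once.

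**Figure D5:**
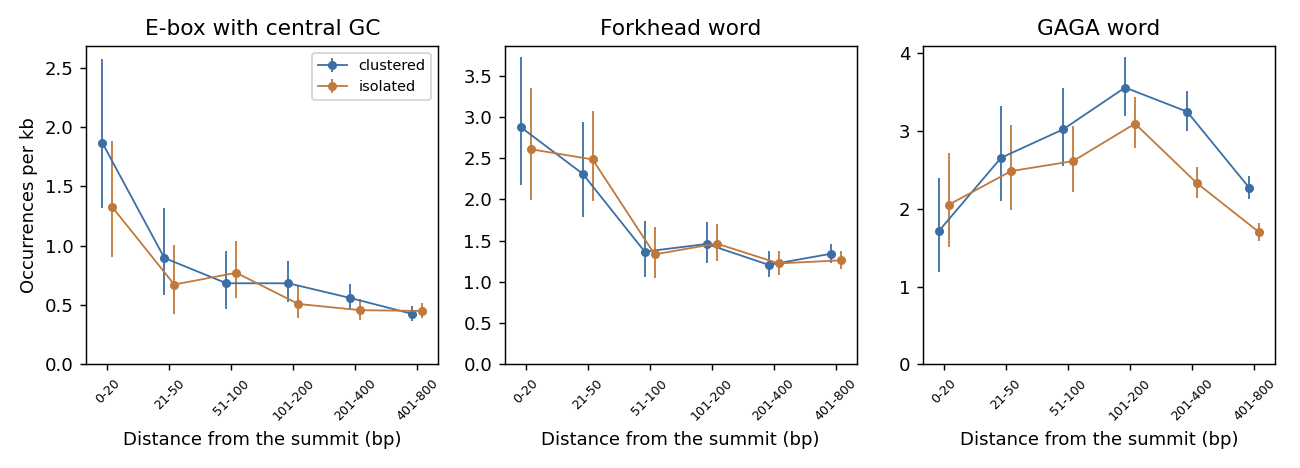
Occurrences per kb of 3 words by distance from the summit (bp) at clustered and isolated summits. Bars are 95% exact Poisson intervals, which cover counting error only and can be too narrow for the GAGA word, whose overlapping copies were each counted. The E-box with central GC is highest within 20 bp, at 1.87 per kb for clustered summits, whereas the GAGA word is highest at 101 to 200 bp, at 3.56 per kb.

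Among 214 neighbouring pairs of clustered summits with separate windows, both held CAGCTG in 9 (4.21%), 1 of the pair in 56 and neither in 149. Among 564 pairs of successive isolated summits on an arm both held it in 16 (2.84%), and the difference was not tested. Any of the 10 E-boxes lay in 333 of 483 clustered windows (68.9%), 406 of 570 isolated ones (71.2%) and 553 of 836 flanks of clustered summits (66.1%). The mean copies per window were 1.21, 1.19 and 1.13. A second copy of CAGCTG lay in 11 clustered windows, 10 isolated ones and 3 flanks. CAGCTG was found in 61 of 310 clustered windows in a first intron (19.7%, 15.6 to 24.5%) and in 21 of 166 in later introns (12.7%, 8.43 to 18.6%), with median signal values of 253 and 226. It lay at 17.5% of the strongest summits of groups and at 17.3% of the others. Neighbouring windows did not repeat each other. The longest run of bases shared by a pair was 18, in shn, and the median was 8, as it was between successive isolated summits.

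The bounds of the rule fell among ordinary summits. Just inside 3000 bp were summits in Svil, trio and rols, 2994, 2971 and 2970 bp from the next one, and just outside were those in Rbfox1 at 3003 bp and in Dhit and edl at 3018 bp each. The Rbfox1 summit, with a signal value of 473, was thus isolated. Among the summits just inside the distance from a TSS were those in NFAT at 2005 bp and Rgl at 2010 bp, and just outside were CHES-1-like at 1992 bp and Dif at 1989 bp, with signal values of 574 and 693. The lowest signal value of a clustered summit was 167, at rank 3761, in the overlapping genes CG45088 and CG6191. Just below the IDR list, a summit in Fas2 that met both distances had 166, at rank 3771.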

How the data were processed

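Regions bound by Nau-GFP in 3 biological replicates were taken as the authors deposited them, in narrowPeak lists on dm6. Signal values are the authors' deposited score of enrichment, on a scale that no source used here names, and each summit position is also theirs. The deposited -log10 q value entered no test. Per the files, the IDR list holds 3767 regions and is cut from the pooled list of 30000. No source used here names the software for alignment or peak calling, or the IDR cutoff. Of the lists on dm3, only the share of summits with a neighbour was taken (2829 of 4987, 56.7%). No coordinates were converted.

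Gene bodies and start sites came from Ensembl release 115 (BDGP6.54), with 13945 protein-coding genes. Summits were joined into groups by single linkage at 3000 bp. Each 201 bp window centred on a summit was searched on both strands. The words were the 10 forms of the E-box CANNTG, the forkhead word TGTTTA, the GAGA factor word GAGAG, the GATA factor word GATAAG, the Zelda word CAGGTAG, the Su(H) word TGGGAA, the NK-2 class word CACTTGA (which holds the E-box CAAGTG read on the other strand), the TEAD word GGAATG, the AP-1 word TGANTCA, the DRE word TATCGATA, the repeat CACACACA and the Mef2 word. The regressions treat neighbouring summits of 1 group as correlated and other summits as independent. On simulated data with a difference of 15 points planted over 1053 summits (median odds ratio 2.41), 200 of 200 runs passed, and 2 of 200 without it. Passing meant an unadjusted p under 0.05 in the regression, and the planted difference was larger than that observed for CAGCTG between clustered and isolated summits. The runs therefore do not show whether a difference of the observed size could be detected. The comparison with flanks was not simulated. Intervals cover counting error only.

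The members, gene lists, words and tests were chosen with earlier results of these data known. The named genes were the 12 hosts with most members, the hosts of the 8 groups with most summits (ties in both by signal) and of the 12 members of highest signal, up to 4 hosts of each list by signal, and nau. Of 223 list names 221 were matched, 5 through another symbol, and the others were not analysed here. Some sequences and genes are not reported here. Computation used Python 3.11.15 with numpy 2.4.6, pandas 2.3.3, scipy 1.17.1, statsmodels 0.14.6 and matplotlib 3.10.9.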

Additional observations from a re-analysis of the deposited data

How the results depend on the processing

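The 483 clustered summits, 230 hosts and 260 groups became 169, 80 and 87 with neighbours within 1000 bp, 217, 98 and 106 at over 5000 bp from a TSS, and 141, 72 and 77 in the strongest 1883 summits. Leaving out a replicate, so that summits had to be matched in both others, left 186 to 222 summits, 102 to 119 hosts and 107 to 127 groups. The share matched, 49.3%, was 61.7% in the strongest 1883, 34.6% within 50 bp, 59.6% within 250 bp, 87.8% over whole lists and 56.7 to 63.4% without a replicate. Words were counted as differing at an adjusted p under 0.05. The number of words that differed between clustered and isolated summits was 0 under all 14 alternatives. The odds ratio of CAGCTG there turned to 0.783 with neighbours within 1000 bp, 0.954 in the strongest 1883 and 0.850 without replicate 2, in a range of 0.783 to 1.42, and without a replicate it ran between 0.850 and 1.32. The GC difference turned to 0.216 at over 5000 bp from a TSS, 0.293 in the strongest 1883, 0.485 without replicate 1 and 0.888 in windows of 50 bp, and was -0.776 in windows of 250 bp (n = 1053, p = 0.0130), with -0.397 to 0.485 without a replicate. Against flanks, CAGCTG had 1.68 with neighbours within 1000 bp, 1.66 in the strongest 1883 and 1.83 without replicate 2 (range without a replicate 1.83 to 2.88, over all alternatives 1.66 to 3.09). The number of words that differed from flanks was 0 with neighbours within 1000 bp, in the strongest 1883 and without replicate 2 (0 to 1 without a replicate), 3 with neighbours within 5000 bp, 3 in windows of 50 bp, 4 in windows of 250 bp, 3 with flanks at 2000 bp and 2 with flanks outside coding exons. The cause of these changes was not tested. Merging summits within 500 bp of a stronger one, an alternative chosen after seeing the data, left 410 summits and an odds ratio of 2.77 against flanks. The 3 replicates form 1 biological group, so no biological groups could be paired by replicate number. Clustered and isolated values of the same replicate could have been paired, but the permutation test over replicates treated them as unpaired.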
